A study of Mus musculus with 12 samples.

Results

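Among thymocyte genes measured both as RNA and as ribosome footprints, 10 were examined whose difference between knockout and wild type in footprints was not the same as that in RNA: Slc37a2, Hspg2, Macf1, Dnah17, Sac3d1, Ankle1, Lyrm7, Klhl18, Gm4759 and Gm1976. They were chosen by name, from an earlier list made with the same libraries, and all 10 were found among the 55335 gene rows of the count tables. Because the libraries that chose them are the libraries described here, every difference between genotypes in these genes is given as a description and tests nothing. The study compared thymocytes, the T-lineage cells of the thymus, from 6-week-old mice. One genotype was wild type (WT) and the other lacked the microRNA pair miR-181a/b-1 (knockout, KO). Each genotype had 3 RNA-seq and 3 footprint libraries, so there were 12 libraries in 4 groups. Cells of all groups were placed in cycloheximide, which stalls ribosomes on mRNA. The labels give no strain, sex or extent of the deleted segment, and no label ties an RNA-seq library to the footprint library of the same mouse.

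Ribosome footprinting sequences the short pieces of RNA that a ribosome shields from nuclease. The footprints of a gene follow both how much of its RNA is present and how densely ribosomes sit on that RNA, so a gene whose footprints and RNA differ unequally between genotypes has another number of footprints per RNA. MicroRNAs guide Argonaute proteins to partly matching sites, mostly in 3' untranslated regions, where they lower RNA stability and translation. The miR-181 family is abundant in immature thymocytes and is known for tuning T cell receptor signalling. Its mature members are shown because the deletion removes 1 source of miR-181a and miR-181b, while other loci encode the same seed; the capitals mark the seed, bases 2 to 8 from the 5' end, and the sequences are those of RefSeq for GRCm38.p6.
miR-181a-5p: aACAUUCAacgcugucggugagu
miR-181b-5p: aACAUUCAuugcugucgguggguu
miR-181c-5p: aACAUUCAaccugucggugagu
miR-181d-5p: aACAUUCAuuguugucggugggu
The 4 seeds are identical, and the members differ in the bases after them. Which of the 10 genes hold a match to that seed was not analysed here.

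Reads in genes numbered 4479182 to 8180286 per RNA-seq library and, per footprint library, 4069968 to 17859770 with the fewest in KO replicate 3. In footprint libraries the row of the deleted gene Mir181a-1 was at 166, 132 and 145 CPM (counts per 1000000 reads of the scaled library total) in WT. In KO it was at 0.463, 1.04 and 0.98 CPM. This is a microRNA gene, so its reads are not taken to show translation. In RNA-seq that row had 57 reads in WT and 67 in KO, so it checks the labels of the footprint libraries only. The row of Mir181b-1 had 0 reads in every group and checks nothing. The summed level of 12 thymocyte markers was 12965 to 14675 CPM in WT and 12350 to 13694 CPM in KO RNA-seq. In footprints it was 21163 to 22296 CPM in WT and 20963 to 22091 CPM in KO. At an edgeR FDR under 0.05 none of them differed in RNA-seq. In footprints Cd4 (log2 fold change 0.57) and Themis (0.23) were higher in KO, and Rag1 (-0.30), Ptcra (-0.37) and Lck (-0.12) lower. That is beside 17.6% of all genes. With the replicate number as a block only Cd4 remained (edgeR FDR 0.0121). The part of these shifts in the 10 genes was not tested. The deposited counts had a further property that touches every error given here. Across 5714 well-measured genes in RNA-seq (log2 CPM on average 5 or more), the deviation of a WT library from its group mean correlated at -0.991 to -0.980 with that of the KO library of the same number, and at 0.101 to 0.747 with those of other numbers. Footprint libraries gave -0.994 to -0.989 and 0.395 to 0.641 across 5330 genes. For the 10 genes, 29 of 30 same-numbered pairs in RNA-seq and 28 of 30 in footprints deviated in opposite directions. An SD taken within groups of such counts may not measure the spread between mice, and so is read here as the spread of these libraries. The SEs come from fits whose dispersion is moderated across genes, and may not measure the spread between mice either. A block on the replicate number within an assay compares libraries that deviate in opposite directions, which by itself widens its SE. A call lost with that block is thus no separate test of the gene, and a call made without it is no firmer for that.

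The measure that chose the genes is the interaction, the log2 fold change of KO over WT in footprints minus that in RNA-seq. It was positive in 8 of the 10 genes, whose footprints were higher in KO than their RNA would give, and negative in Macf1 and Dnah17. Its median was 1.17, against 0.012 over all genes tested. In size it ran from 0.56 in Macf1 to 2.03 in Gm4759. All 10 were called in the fit over 11854 genes (edgeR, FDR under 0.05), in which 0.211% of genes were called, 0.135% with a positive and 0.0759% with a negative interaction. Since this contrast chose them, nothing is read from that count. The called genes just inside the threshold were Zfp362 (interaction 0.57, edgeR FDR 0.0462) and 4833439L19Rik (0.53, edgeR FDR 0.0462). Just outside it were Gm37584 (-2.17, edgeR FDR 0.0534) and 5430416N02Rik (-0.80, edgeR FDR 0.055). Ankle1, at an edgeR FDR of 0.0449, was the member nearest the threshold.

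The 2 assays contributed unequally to these interactions, and in several ways. In RNA-seq 6 of the 10 genes were called, 3 higher and 3 lower in KO, where 6.91% of 13652 genes were called (3.48% higher and 3.43% lower). In footprints 9 were called, 6 higher and 3 lower, where 17.6% of 13509 genes were called (9.25% higher and 8.34% lower). The median log2 fold change of the 10 was -0.15 in RNA-seq and 0.40 in footprints, against -0.0005 and -0.009 over all genes tested. The libraries of the genotypes did not overlap for 9 of the 10 in RNA-seq, against a background of 30.9%, and for all 10 in footprints, against 38.1%. As these values enter the rule, nothing is read from the counts. With the replicate number as a block, only Hspg2 was called in RNA-seq, and Gm4759 and Lyrm7 in footprints, against backgrounds of 0.806% and 3.02%. On omitting any 1 library, the RNA-seq calls of Lyrm7 and Macf1 and the footprint call of Slc37a2 were lost each time, and the footprint call of Hspg2 held only without WT replicate 3. Hspg2 was lower and Gm4759 and Lyrm7 were higher in KO in both assays, by unequal amounts. Slc37a2 was lower in RNA and higher in footprints, and Macf1 higher in RNA and lower in footprints, with both changes called. The other 5 were called in 1 assay each: Sac3d1 in RNA, where it was lower, and Gm1976, Klhl18, Ankle1 (higher) and Dnah17 (lower) in footprints. These calls are those of edgeR. DESeq2 did not call Sac3d1 (DESeq2 adjusted p 0.0522), Macf1 (0.0618) or Lyrm7 (0.122) in RNA-seq, or Slc37a2 in footprints (0.231).

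**Figure D1:**
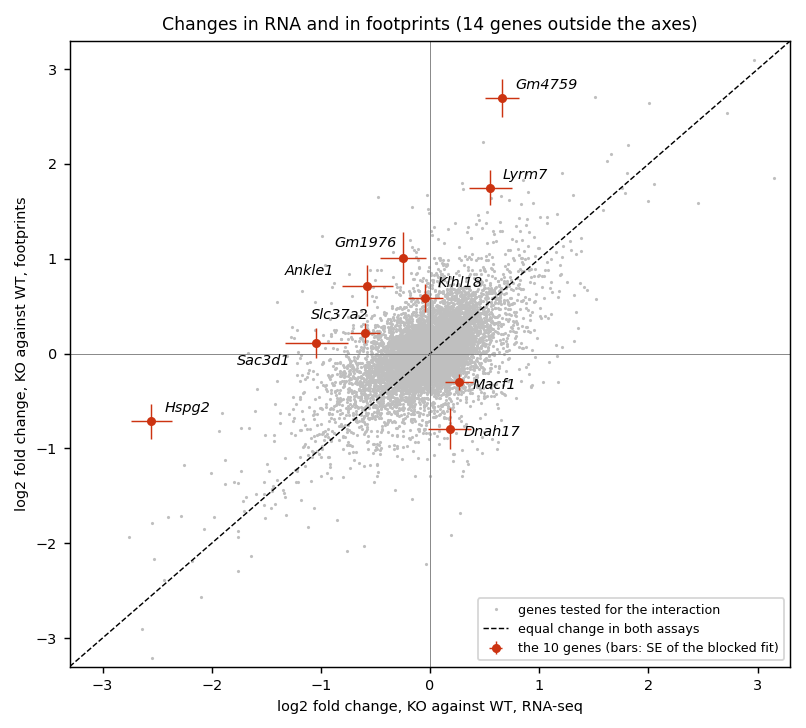
Log2 fold change of KO over WT in RNA-seq (x axis) and in footprints (y axis) for all genes tested for the interaction (grey) and the 10 genes (red, bars give the SE of the fit with the replicate number as a block); the dashed line marks equal change. Gm4759 and Lyrm7 lie above the line at upper right, Hspg2 above it at lower left, and only Macf1 and Dnah17 of the 10 lie below it. Outside the axes lie 14 genes.

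Slc37a2 encodes a sugar phosphate transporter of the SLC37 family in the membrane of the endoplasmic reticulum, best known from macrophages. Its RNA (ENSMUSG00000032122.15) was at 80.8, 82.8 and 84.7 CPM in WT replicates 1 to 3 and at 56.1, 54.8 and 53.2 CPM in KO. Its footprints were at 31.0, 32.7 and 32.1 CPM in WT and at 38.3, 36.3 and 36.7 CPM in KO. Every KO library was thus below every WT library in RNA and above every one in footprints. The log2 fold change was -0.60 (SE 0.05) in RNA and 0.22 (SE 0.05) in footprints, which gives an interaction of 0.82 (SE 0.08). As to macrophages in the preparation, 8 myeloid and macrophage markers summed to 78.2 to 88.9 CPM in WT and 72.9 to 84.0 CPM in KO RNA-seq, and to 265 to 302 and 253 to 293 CPM in footprints. None was at 0 in either assay. C1qa was lower in KO footprints (edgeR FDR 0.0495, with the block 0.277). The part of such cells in the Slc37a2 values was not tested. In bulk samples, fewer cells of a type and less RNA per cell cannot be told apart.

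The other 3 SLC37 genes were all tested. Slc37a3, a relative of unclear substrate, rose in KO by 0.23 in RNA-seq (edgeR FDR 0.0426) and by 0.48 in footprints (edgeR FDR 0.024). Slc37a1, a glucose-6-phosphate antiporter, rose by 0.39 in footprints (edgeR FDR 0.0104) and was at -0.01 in RNA-seq, with an interaction of 0.40 (edgeR FDR 0.234); the footprint call was lost without KO replicate 2 (0.0555). The median interaction of the 3 was 0.25, against 0.012 over all genes. With the replicate number as a block these calls were lost, at edgeR FDR 0.636 and 0.0995 for Slc37a3 and 0.129 for Slc37a1. The Slc37a3 call in RNA-seq was lost on omitting any 1 library, and that in footprints in 4 of 6 omissions.

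Hspg2 encodes perlecan, a large heparan sulfate proteoglycan of basement membranes. Its RNA (ENSMUSG00000028763.18) was at 44.5, 44.6 and 41.2 CPM in WT and at 7.29, 6.84 and 7.83 CPM in KO. Footprints were at 41.4, 33.3 and 29.5 CPM in WT and at 17.1, 22.8 and 26.0 CPM in KO. All KO libraries were below all WT libraries in both assays, with a wide gap in RNA and a narrow one in footprints, between 29.5 and 26.0 CPM. The log2 fold change was -2.55 (SE 0.08) in RNA and -0.71 (SE 0.18) in footprints, so the interaction of 1.84 (SE 0.23) reflects a smaller difference in footprints, not more of them. RNA reads were few in KO, 142 over the group against 902 in WT. Markers of stroma and endothelium, cells that make perlecan, went the other way: 8 markers summed to 208 to 216 CPM in WT and 240 to 253 CPM in KO RNA-seq, and to 237 to 275 and 269 to 317 CPM in footprints. Pdgfrb and Pecam1 among them were called higher in KO in both assays, and none was at 0. With the block these calls were lost. The edgeR FDR in RNA-seq and footprints was then 0.328 and 0.0594 for Pdgfrb, and 0.59 and 0.497 for Pecam1. The median log2 fold change of the markers tested was 0.096 in RNA-seq and 0.127 in footprints. Markers of thymic epithelium, which also lies on basement membrane, were lower in KO: 6 markers summed to 22.6 to 25.3 CPM in WT and 17.7 to 20.0 CPM in KO RNA-seq, and to 76.7 to 84.0 and 60.9 to 72.8 CPM in footprints. Among them Krt5 fell by 1.07 in RNA-seq (edgeR FDR 0.0228; with the block 0.248) and Epcam by 0.50 in footprints (edgeR FDR 0.0339; with the block 0.104), and none was at 0. The part of either kind of cell in the Hspg2 values was not tested.

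Of 16 other basement membrane genes (laminins, collagen IV chains, nidogens and relatives), 12 were tested in RNA-seq and 15 in footprints. None was called by edgeR or DESeq2 in either assay, with 4 at an unadjusted edgeR p under 0.05 in RNA-seq and 2 in footprints, a level that 23.8% and 33.1% of all genes reached. Their median log2 fold changes were -0.27 and -0.17, beside -0.25 and -0.09 for the epithelial markers, and their median interaction was 0.17. Lamb2, the laminin beta 2 chain, had the largest interaction, 0.95 (SE 0.38, edgeR FDR 0.28), from 47 RNA reads in WT and 19 in KO.

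Macf1 encodes a spectraplakin, a giant protein that links actin filaments to microtubules. It gave the most reads of the 10, with 39522 RNA reads in WT and 43824 in KO. RNA (ENSMUSG00000028649.20) was at 1966, 1924 and 1820 CPM in WT and at 2216, 2265 and 2366 CPM in KO. Footprints were at 753, 771 and 721 CPM in WT and at 608, 592 and 631 CPM in KO. KO libraries were all above WT in RNA and all below WT in footprints. The changes were small, 0.26 (SE 0.06) in RNA and -0.30 (SE 0.04) in footprints on the log2 scale, and gave the smallest interaction of the 10, -0.56 (SE 0.08).

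Of 10 genes listed as plakins and microtubule plus-end partners, 9 were tested in RNA-seq and 10 in footprints. Dst, the spectraplakin most like Macf1, rose by 0.26 in RNA-seq (edgeR FDR 0.0461) and was at -0.09 in footprints, with an interaction of -0.34 (SE 0.17, edgeR FDR 0.408). Clip1, which tracks growing microtubule ends, rose by 0.40 in RNA-seq (edgeR FDR 0.031) and by 0.45 in footprints (edgeR FDR 0.00217). Evpl, a plakin of the cornified envelope, fell by 0.55 in footprints (edgeR FDR 0.0272). No other gene of the list was called by edgeR. DESeq2 did not call Dst in RNA-seq (DESeq2 adjusted p 0.273). It did call Dsp, desmoplakin, in footprints (log2 fold change -0.44, edgeR FDR 0.0618, DESeq2 adjusted p 0.0275). The list's median interaction was -0.01. The Clip1 call in footprints held with the block (edgeR FDR 0.0285) and in all 6 omissions, while both RNA-seq calls were lost with the block (0.593 for Dst and 0.313 for Clip1) and in every omission. The call of Evpl was lost with the block (0.103) and without KO replicate 1 or 2 (0.0624 and 0.0674).

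Dnah17 encodes a heavy chain of the outer dynein arm, the motor of sperm flagella. Its RNA (ENSMUSG00000033987.16) was at 13.1, 14.5 and 14.7 CPM in WT and at 16.9, 15.6 and 15.4 CPM in KO. Footprints were at 7.94, 6.98 and 7.47 CPM in WT and at 3.89, 4.60 and 4.41 CPM in KO. The RNA of the genotypes was close but did not overlap, and footprints were clearly apart, with KO low. The log2 fold change was 0.18 (SE 0.09) in RNA and -0.79 (SE 0.10) in footprints, an interaction of -0.97 (SE 0.14). These footprints were 343 reads in WT and 131 in KO. In RefSeq the gene Pgs1, a mitochondrial phospholipid synthase, overlaps Dnah17. Pgs1 had 1714 footprint reads in WT and 954 in KO and fell by 0.25 (edgeR FDR 0.0271), a call lost with the block (0.319) and in every omission. Whether the counting used strand is not stated in the sources used here, so how far reads of this locus were divided correctly between the overlapping genes is uncertain. Of 18 other axonemal dynein chains only 4 were tested in each assay, and Dnah8 rose by 0.32 in RNA-seq (edgeR FDR 0.0356; with the block 0.431, and lost in every omission). Dnal1, a light chain of the outer arm, had the largest interaction among them, -0.40 (SE 0.21, edgeR FDR 0.543).

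**Figure D2:**
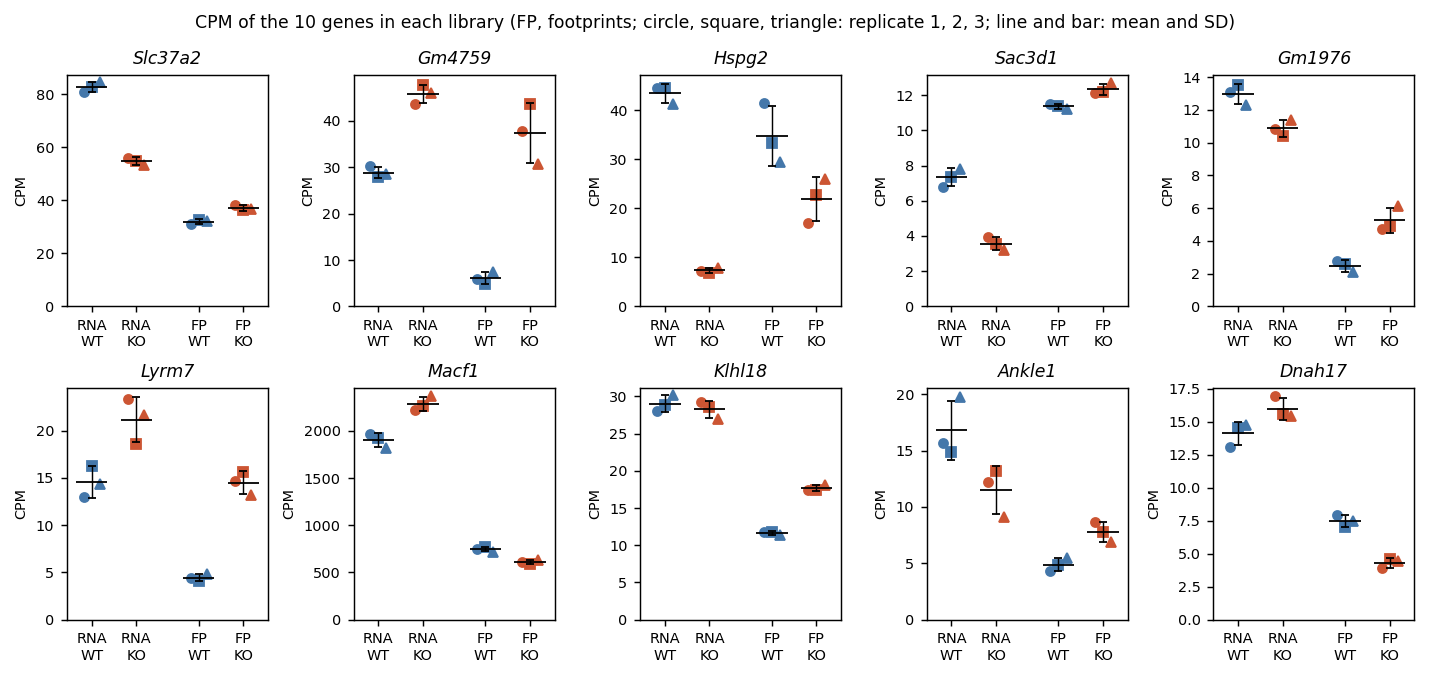
CPM of each of the 10 genes in the 12 libraries, by assay and genotype; each symbol is 1 library (circle, square and triangle for replicates 1, 2 and 3), with the mean and SD of 3, on linear axes that start at 0. The genotypes overlap only for the RNA of Klhl18.

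Sac3d1 encodes a protein with the SAC3 domain of mRNA export factors, linked to the centrosome and the spindle. RNA of Sac3d1 (ENSMUSG00000024790.8) was at 6.81, 7.37 and 7.82 CPM in WT and at 3.94, 3.54 and 3.23 CPM in KO. Its footprints were at 11.5, 11.4 and 11.2 CPM in WT and at 12.1, 12.2 and 12.7 CPM in KO. KO libraries were low in RNA and only slightly above WT in footprints, without overlap in either assay. The log2 fold changes were -1.04 (SE 0.13) and 0.11 (SE 0.06), so the interaction of 1.16 (SE 0.15) lay almost wholly in RNA. That RNA rests on 153 reads in WT and 68 in KO. Footprints did not pass the threshold. Of 7 other genes of the TREX-2 complex, which couples transcription to mRNA export, and of centrin, Leng8 rose by 0.25 in footprints (edgeR FDR 0.0337; with the block 0.204, and lost in every omission). In RNA-seq none of the 7 was called by edgeR or DESeq2, with 2 at an unadjusted edgeR p under 0.05. Eny2 had the largest interaction among them, -0.54 (SE 0.22, edgeR FDR 0.282).

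Ankle1 encodes an endonuclease with ankyrin repeats and a LEM domain, found mostly in blood-forming tissues. Its RNA (ENSMUSG00000046295.13) was at 15.7, 14.9 and 19.8 CPM in WT and at 12.2, 13.2 and 9.08 CPM in KO. Footprints were at 4.34, 4.86 and 5.48 CPM in WT and at 8.70, 7.78 and 6.86 CPM in KO. WT replicate 3 had the most RNA and KO replicate 3 the least, and the genotypes were nearest at 14.9 and 13.2 CPM. The log2 fold changes were -0.57 (SE 0.18) in RNA, which was not called, and 0.72 (SE 0.12) in footprints, with an interaction of 1.29 (SE 0.23). Of 6 other LEM domain proteins of the inner nuclear membrane and their kin, 5 were tested. Ankle2 rose by 0.20 (edgeR FDR 0.0121) and Emd, emerin, by 0.26 (edgeR FDR 0.00816) in footprints, both lost with the block (0.269 and 0.169), and that of Ankle2 also without KO replicate 2 (0.0609). None of the 5 was called in RNA-seq by edgeR or DESeq2, and none was at an unadjusted edgeR p under 0.05 there. The largest interaction was that of Tmpo, -0.26 (SE 0.09, edgeR FDR 0.239).

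Lyrm7 encodes a small mitochondrial protein of the LYR motif family that hands the Rieske iron-sulfur subunit to respiratory complex III. Its RNA (ENSMUSG00000020268.14) was at 13.0, 16.3 and 14.4 CPM in WT and at 23.3, 18.6 and 21.6 CPM in KO. Its footprints were at 4.40, 4.07 and 4.82 CPM in WT and at 14.7, 15.6 and 13.2 CPM in KO. Both assays were higher in all KO libraries, RNA by 0.55 (SE 0.12) and footprints by 1.75 (SE 0.09) on the log2 scale. In linear terms the fitted change was 1.47-fold in RNA and 3.36-fold in footprints. The interaction was 1.19 (SE 0.16).

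All 16 other genes of the LYR motif family and of complex III assembly were tested in both assays. In footprints Ndufb9, a subunit of complex I, fell by 0.29 (edgeR FDR 0.00436) and Uqcc2, a complex III assembly factor, fell by 0.35 (edgeR FDR 0.0138), both opposite in sign to Lyrm7. Both calls were lost with the block, at 0.176 and 0.159, and that of Uqcc2 also without KO replicate 1 (0.0556). In RNA-seq none of the 16 was called by edgeR or DESeq2, with 1 at an unadjusted edgeR p under 0.05. The medians were -0.01 in RNA-seq and 0.0045 in footprints, beside -0.0005 and -0.009 over all genes. Lyrm2 had the largest interaction, -0.35 (SE 0.25, edgeR FDR 0.571).

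Klhl18 encodes a Kelch protein that brings substrates to the CUL3 ubiquitin ligase. Its RNA (ENSMUSG00000054792.15) was at 28.0, 28.8 and 30.2 CPM in WT and at 29.2, 28.6 and 27.0 CPM in KO. Footprints were at 11.8, 11.8 and 11.4 CPM in WT and at 17.4, 17.4 and 18.1 CPM in KO. This was the only gene of the 10 whose genotypes overlapped in RNA, while its footprint libraries were close together within each genotype and higher in KO. The log2 fold changes were -0.04 (SE 0.07) and 0.59 (SE 0.05), so that the interaction of 0.63 (SE 0.09) lay in footprints. The neighbouring gene Ngp, a granule protein of neutrophil precursors, rose by 1.00 in footprints (edgeR FDR 0.0372; with the block 0.0493), and this call held in 2 of 6 omissions.

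Of 26 other KLHL adaptors and parts of the CUL3 ligase, 25 were tested in each assay. In RNA-seq 3 rose: Klhl9 by 0.32 (edgeR FDR 0.0321), Klhl23 by 0.76 (0.0128) and Klhl42 by 0.26 (0.0386). In footprints 5 rose and 1 fell. Klhl12, an adaptor linked to the size of COPII vesicles, rose by 0.52 (edgeR FDR 0.00172), Klhl23 by 0.67, Klhl3 by 0.39, Klhl42 by 0.35 and Klhl6, known from B cells, by 0.21, while Klhl11 fell by 0.27 (edgeR FDR 0.00634). With the block each of these calls was lost, the nearest being Klhl12 at an edgeR FDR of 0.0649. On omitting a library, the calls of Klhl9 and Klhl42 in RNA-seq and of Klhl3 and Klhl6 in footprints were lost each time, and that of Klhl23 in RNA-seq in 4 of 6. Kbtbd4 had the largest interaction, -0.999 (SE 0.31, edgeR FDR 0.218), from 25 RNA reads in WT and 45 in KO.

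Gm4759 is annotated in RefSeq as a transcribed pseudogene and lies beside Gm8995 in a cluster of very large interferon-inducible GTPase genes. RNA of Gm4759 (ENSMUSG00000053541.3) was at 30.2, 27.9 and 28.5 CPM in WT and at 43.7, 47.7 and 46.1 CPM in KO. Footprints were at 6.00, 4.86 and 7.38 CPM in WT and at 37.9, 43.7 and 30.6 CPM in KO. Both assays were high in every KO library, and the lowest KO footprint value, 30.6 CPM, stood far above the highest in WT, 7.38 CPM. The fitted change was 1.58-fold in RNA and 6.47-fold in footprints. On the log2 scale this was 0.66 (SE 0.07) and 2.69 (SE 0.17), with the largest interaction of the 10, 2.03 (SE 0.19). Reads under a row annotated as a pseudogene can come from near-identical family members, so which gene these footprints belong to is uncertain.

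The rows nearest in kind did not follow it. Gm8995 had 2466 footprint reads in WT and 1682 in KO, with log2 fold changes of -0.07 in RNA and -0.01 in footprints, and an interaction of 0.05 (SE 0.17) that changed sign in 4 other settings. Gm1966, the other listed gene of this family with enough reads to test, fell by 0.81 in RNA-seq (edgeR FDR 0.00671) and by 0.76 in footprints (edgeR FDR 0.0111). The footprint call held with the block (0.0389) and that in RNA-seq did not (0.083), and both held in all 6 omissions. Gm8989, on the other side of Gm4759, had at most 3 reads in any group.

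Gm1976 is annotated in RefSeq as a long noncoding RNA. Its RNA (ENSMUSG00000066057.7) was at 13.1, 13.5 and 12.3 CPM in WT and at 10.8, 10.4 and 11.4 CPM in KO. Footprints were at 2.74, 2.57 and 2.08 CPM in WT and at 4.72, 4.93 and 6.12 CPM in KO. RNA was slightly lower and footprints were higher in all KO libraries. The log2 fold changes were -0.25 (SE 0.08) and 1.01 (SE 0.14), an interaction of 1.25 (SE 0.17). Its footprint reads were 116 in WT and 152 in KO, and footprint reads on a row annotated as noncoding do not by themselves show that a protein is made. The overlapping pseudogene row 2700099C18Rik was at 0.27 in RNA and -0.38 in footprints on the log2 scale, neither called, with an interaction of -0.65 (edgeR FDR 0.279). The neighbour Mettl4, a methyltransferase gene, rose by 0.23 in footprints (edgeR FDR 0.0278; with the block 0.374, and lost in every omission).

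Across all the lists together, 82 genes other than the 10 were tested for the interaction. None was called by edgeR or DESeq2, with 12 at an unadjusted edgeR p under 0.05, beside 14.0% of all genes. In RNA-seq 7 of 83 rose and 1 fell, where 6.91% of all genes were called. In footprints 11 of 87 rose and 5 fell, where 17.6% were called. With the block, 0 of those 8 calls in RNA-seq and 2 of the 16 in footprints were kept, those of Gm1966 and Clip1. DESeq2 called 4 of the 83 in RNA-seq and 11 of the 87 in footprints. Over all genes it called 532 of 13652 and 1235 of 13509.

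The number of footprints per RNA can be set out within each genotype as the log2 ratio of footprint CPM to RNA CPM, which is relative to the library totals, to which each assay is scaled. In WT 9 of the 10 genes lay below the median ratio of the 11854 genes, which was -0.20 with quartiles at -1.08 and 0.69. Gm1976 was at -2.40 in WT and -1.05 in KO, and Gm4759 at -2.25 and -0.29. Ankle1 was at -1.78 and -0.57, Lyrm7 at -1.72 and -0.55, Slc37a2 at -1.37 and -0.56, and Klhl18 at -1.31 and -0.68. These 6 genes began low and were nearer the median in KO. Hspg2 went from -0.32 to 1.58 and Sac3d1 from 0.63 to 1.79, both above the median in KO, while Macf1 went from -1.35 to -1.90 and Dnah17 from -0.92 to -1.89, away from it. The WT ratio enters the interaction and so cannot be taken as a separate property. The mean of both genotypes' ratios comes from the same counts and carries part of any shift in 1 genotype, so it is no separate property either. It lay below the median gene for 8 of the 10, between the 13.0 percentile of Gm1976 and the 27.6 percentile of Slc37a2. Hspg2 was at the 73.3 and Sac3d1 at the 86.4 percentile.

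**Figure D3:**
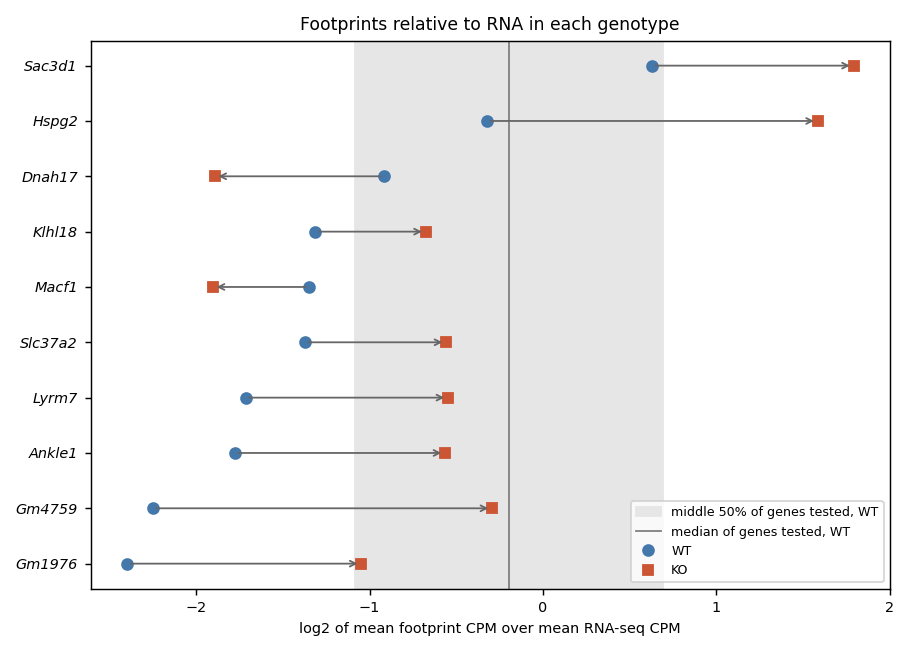
Log2 ratio of mean footprint CPM to mean RNA CPM in WT and in KO for the 10 genes, joined by arrows from WT to KO; the grey band and line give the middle 50% and the median of the genes tested, in WT. The ratio is higher in KO for 8 genes and lower for Macf1 and Dnah17, and 6 of the 10 are nearer the median in KO than in WT.

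The size of the errors differed greatly between the genes, and for many it was smaller than counting alone gives. If reads are counted independently, the SE of a log2 fold change follows from the number of reads. By that measure the SE of the Sac3d1 interaction would be 0.23, whereas the fit gave 0.15 and the fit with the replicate number as a block 0.29. For Macf1, which has many more reads, counting gives 0.017, the fit 0.08 and the block 0.15. The fitted SE of the interaction was at or below the counting SE in 6 of the 10 genes (Slc37a2, Sac3d1, Gm1976, Lyrm7, Klhl18 and Dnah17), beside 25.6% of all genes tested and 68.0% of the 25 called. With the block this held for 0 of the 10 and for 0.24% of genes.

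The spread between libraries of a group was set against counting noise. The chi-square of the reads within groups, per degree of freedom (8 in all), is near 1 for independent counts. It was 0.143 for Sac3d1, 0.178 for Klhl18, 0.334 for Slc37a2, 0.384 for Gm1976 and 0.385 for Dnah17, all well under 1, and 0.905 for Lyrm7, close to 1. Ankle1 was at 1.82, Gm4759 at 3.05, Hspg2 at 5.82 and Macf1 at 13.9, above counting noise. A value under 1 was found in 27.3% of the genes tested, whose median was 1.87. The deposited counts are named as adjusted, and what the adjustment did to these spreads was not tested. The 95% counting interval of the interaction was 0.70 to 1.61 for Sac3d1, 0.39 to 0.87 for Klhl18 and -1.34 to -0.60 for Dnah17, and covers counting error only.

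**Figure D4:**
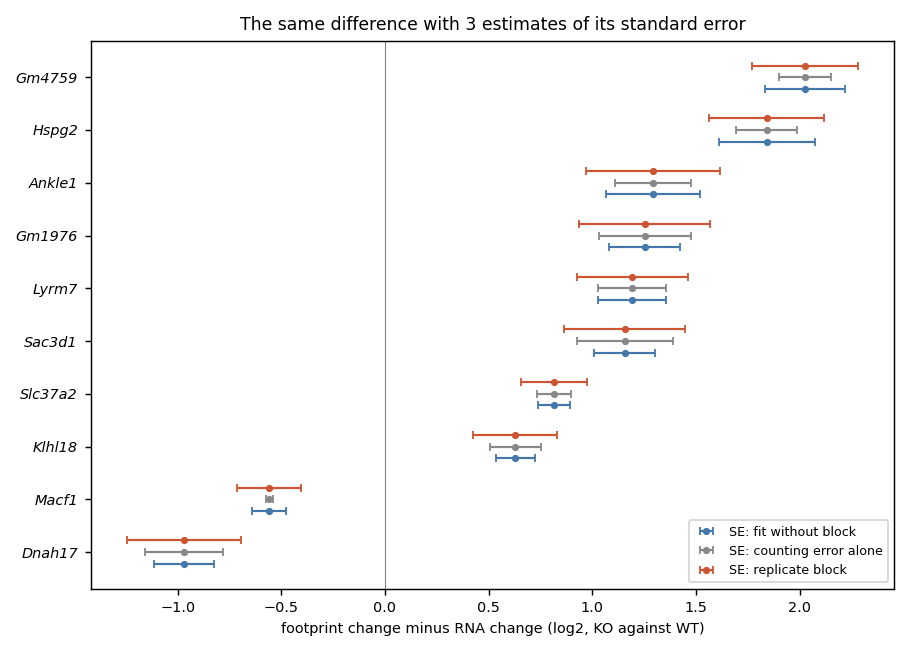
Interaction of each of the 10 genes (log2, x axis) with 3 error estimates: the SE of the fit without a block, the SE from counting alone and the SE of the fit with the replicate number as a block. The bars of the block are the longest for each gene. How much of their length comes from the opposite deviations of same-numbered libraries was not tested. For Sac3d1 the bar of the fit without the block is shorter than that of counting.

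With the block within each assay, the Gm4759 interaction was still called (1.99, edgeR FDR 0.0165), where 0.0169% of genes were, and those of the other 9 were not, with Hspg2 nearest at an FDR of 0.0559 and a size of 1.87. Where libraries of 1 genotype and number were treated as 1 mouse, 0.143% of genes were called and 6 of the 10 remained so, namely Slc37a2, Gm4759, Hspg2, Gm1976, Macf1 and Ankle1. Omission of any 1 of the 12 libraries changed the sign of none of the 10 interactions. The calls of Slc37a2, Gm4759, Hspg2 and Sac3d1 held in all 12 omissions, Gm1976 in 10, Lyrm7 and Macf1 in 8, Dnah17 in 5, Klhl18 in 3 and Ankle1 in 2. Without footprint WT replicate 2 or footprint KO replicate 2, the calls of Gm1976, Lyrm7, Macf1, Klhl18 and Ankle1 were lost. Omission of footprint WT or KO replicate 1 left 5 of the 10 calls, that of WT replicate 2 left 5 and that of KO replicate 2 left 4. Gm4759 ranged from 1.88 to 2.15 over the omissions, Hspg2 from 1.74 to 2.00, and Ankle1 from 1.12 to 1.38. The authors' deposited tables list 2 of the 10 as significantly higher and 2 as significantly lower in RNA-seq, and 4 as higher and 2 as lower among the 9 found there for footprints. Over all genes, the authors' deposited tables list 4.12% as significant in RNA-seq (2.46% higher and 1.66% lower) and 10.6% in footprints (6.25% higher and 4.38% lower), and as the libraries are the same, nothing is read from the members' counts.

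The 10 genes fell into several patterns over the 12 libraries, described by Pearson's r of log2 CPM after centring each assay on its own mean. The libraries share 2 genotypes, so genes chosen for a difference between these are alike in part by that choice, and no p is given. Gm4759 and Lyrm7 were the most alike pair (r = 0.98), followed by Slc37a2 and Sac3d1 (0.96) and by Klhl18 and Gm1976 (0.94). Sac3d1 also followed Hspg2 (0.90), and Macf1 followed Dnah17 (0.77). Macf1 ran opposite to Ankle1 (-0.94) and Dnah17 opposite to Klhl18 (-0.92).

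**Figure D5:**
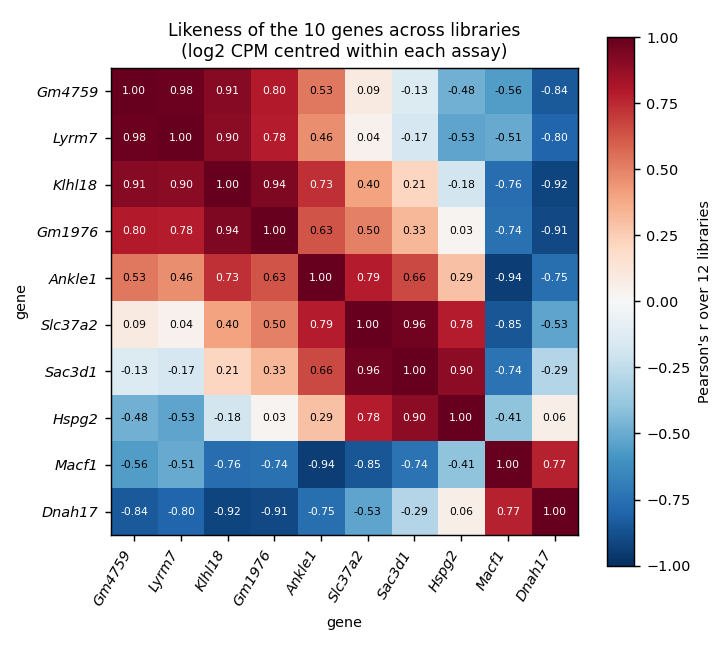
Pearson's r between the 10 genes over the 12 libraries, from log2 CPM centred within each assay; red is positive and blue negative. Gm4759 with Lyrm7 (0.98) and Slc37a2 with Sac3d1 (0.96) are the highest pairs, and Macf1 and Dnah17 are mostly opposite to the others.

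By the same measure over all genes tested in both assays, Gm4759 was most like Ift46 (0.99) and Ube2f (0.98), and Lyrm7 most like Ift46 (0.99) and Zfp958 (0.99). Slc37a2 was most like Josd2 (0.97), Sac3d1 like Dnajb5 (0.98) and Hspg2 like Ldlrad3 (0.98). Klhl18 was nearest to Laptm5 (0.99), Gm1976 to Dusp4 (0.99) and Ankle1 to Sh3tc1 (0.97). Macf1 was nearest to 4930402H24Rik (0.97) and Ddx3y (0.97), and Dnah17 to Ank2 (0.98). These likenesses say nothing of shared function or control.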

How the data were processed

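Per the labels' protocols, RNA-seq and footprint libraries were made with a ribosome profiling kit from 3 WT and 3 KO mice. The submitters' processing notes name FastQC, Bowtie2 2.5.1, STAR 2.7.10a, HTSeq 2.0.3 and DESeq2 1.40.2; no reference build, gene model set or use of strand was stated in the sources used here. The authors deposited whole-number counts per Ensembl gene, named as adjusted, 1 table per assay. The authors also deposited a comparison table per assay with log2 fold changes and adjusted p-values, whose 12 per-library columns were not used. Rows that name no gene (5 per table, 50.9% to 57.1% of RNA-seq reads and 5.32% to 6.39% of footprint reads in no feature) were left out. Gene IDs were matched to symbols by a supplied table. Gene types were taken from RefSeq of GRCm38.p6, whose coordinates served to find overlapping and neighbouring genes.

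Each assay was fitted with edgeR 4.0.16 (R 4.3.3; TMM, filterByExpr with a minimum count of 10, quasi-likelihood test, Benjamini-Hochberg adjustment), and the 12 libraries were fitted jointly, with TMM factors per assay, for the genotype by assay interaction. The SE of a fitted change is its absolute log2 fold change over the square root of the F statistic of the quasi-likelihood test. CPM is per 1000000 reads of the TMM-scaled total, and log2 CPM used a prior count of 2. On simulated counts with 200 genes changed 2-fold, the fits recovered 94.0% in RNA-seq with 11 false calls, 97.0% in footprints with 21, and 59.6% of 198 for the interaction with 7. The simulated counts were independent, with a single fixed dispersion, and the changed genes were drawn from well-counted rows. They lack the mirrored deviations of the deposited counts, so these figures do not measure the rate of false calls in these data. DESeq2 1.42.0, RLE size factors, no filter, an FDR of 0.1, the replicate number as a block and the omission of each library were tried as alternatives; the comparison with counting error was chosen after seeing the data. The members and gene lists were chosen with earlier results of these data known. Genes named are the 10 members, genes called in the lists or among neighbours, the largest interaction per list among genes of average log2 CPM 1 or more, the 2 genes on each side of the threshold, and per member the genes most like it.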

Additional observations from a re-analysis of the deposited data

How the results depend on the processing

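None of the values given for the 10 genes changed sign under any alternative run. RLE size factors and fits without the filter on low counts kept every count within 1.5 times. The genes called were not all the same: without the filter, 772 of the 943 RNA-seq calls and 1904 of the 2376 footprint calls were kept. Among the members, Macf1 in RNA-seq (edgeR FDR 0.0772) and Slc37a2 in footprints (0.0698) were then not called. In RNA-seq the 943 calls over all genes became 1742 at an FDR under 0.1, 532 with DESeq2 and 215 to 323 on omitting 1 library, and the 6 members became 3 with DESeq2 and 4 in each omission. In footprints the 2376 calls became 1235 with DESeq2 and 1035 to 1554 in the omissions, and the 9 members 7 to 8. For the interaction the 25 calls became 131 at an FDR under 0.1, 44 with DESeq2 and 6 to 24 in the omissions, and the 10 members 4 to 10. Omissions also lower the number of libraries fitted. For other moves the cause was not tested.

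Where each assay was fitted with a replicate block, 110 genes were called in RNA-seq, 408 in footprints and 2 for the interaction, of which 1, 2 and 1 were members. With a block by mouse, which takes RNA-seq and footprint libraries of 1 genotype and number as 1 animal, 17 genes and 6 members were called for the interaction. The numbers were not shown to pair the samples: deviations of same-numbered libraries correlated at -0.994 to -0.980, each library was least like its own number, and the labels name no shared litter, batch or day. The low counts limit Sac3d1 (68 RNA reads in KO), Dnah17 (131 footprint reads in KO) and Gm1976 (116 footprint reads in WT) most.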
